A study of Mus musculus with 10 samples.

Results

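Brain metastases of 4T1 mammary carcinoma, a mouse tumour line, were brought into culture, and the sublines so obtained were compared with those from the other sites of the same model. The brain-derived sublines (B, 4 arrays, B1 to B4) were set against those from primary tumours (T, 3 arrays, T1 to T3) and from lung metastases (L, 3 arrays, L1 to L3), with T and L given equal weight, so that all 10 arrays of the series were used. All sublines came from luciferase-tagged 4T1 cells grown as primary tumours in female BALB/c mice aged 6 to 8 weeks and are set apart in the labels by the organ from which they were isolated. No treatment and no further engineered genetic change is given for any group, and the DNA of the sublines was not measured. The cells were dissociated from the organs, kept in culture and passaged before RNA was taken, so the arrays read the cells in the dish and not in the organ. Each array holds 1 independently isolated subline, and p-values measure the spread between sublines.

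Cells of the 4T1 line spread from the primary tumour without surgery or selection, mostly to the lung and only in some mice to the brain. Tumour cells that reach the brain must cross a vessel wall sealed by tight junctions and then grow among astrocytes, microglia and neurons, in a tissue whose nutrients differ from those of the mammary gland. Genes that have been linked to this step in other models act in vessel crossing, in adhesion to the vessel wall, in chemokine signalling and in handling of reactive metabolites.

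Each probe of the Illumina bead arrays reads the amount of 1 transcript as a fluorescence intensity, given here as a background-corrected and normalized log2 value. A difference of 1 on this scale is a doubling. The arrays had median raw intensities of 68.8 to 85.9 and detected 14218 to 15563 probes, and dim values below about 5.6 to 5.9 were not told from background. Of 10 epithelial markers, 8 were detected, and Epcam and Krt5 were not detected on any array. Among markers of brain cells, 9 of 12 for astrocytes (Gfap and Aqp4 among them), 11 of 13 for neurons (Rbfox3 and Snap25 among them) and 7 of 12 for oligodendrocytes (Mog and Olig2 among them) were not detected on any of the 10 arrays, nor were the microglial Tmem119 and Cx3cr1. Others, which are not confined to those cells, were detected on all arrays: Gja1, Sox9 and Aldoc of the astrocyte list, Map2 of the neuron list and Mbp, Cnp and Pdgfra of the oligodendrocyte list. P2ry12 of microglia was detected on 2 lung arrays and on no B array. Cspg4 of the oligodendrocyte list was detected on 2 B arrays and Tubb3 of the neuron list on 1 B array. Neither was detected on a T or L array, and neither was called. The leukocyte gene Ptprc, the macrophage genes Adgre1 and Csf1r, the endothelial gene Pecam1 and the fibroblast gene Col1a1 were not detected on any array. Other members of those lists were detected: Cd14, Flt1, Eng and Pdgfra on all arrays, and Lyz1 and Lyz2 on all L and some T arrays. Pdgfrb was detected on 1 B array, Thy1 on 1 T array, and Dcn on 1 B and 1 L array.

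Brain-derived sublines differed widely from the others. Of 9486 genes tested, 2293 (24.2%) passed an adjusted p of 0.05 in limma, 1149 of them higher (12.1%) and 1144 lower (12.1%) in B. Counts in the gene lists below are to be read against these shares, 12.1% in each direction. Among the higher genes the median log2 difference was 0.71, and 269 were at least 2-fold, 35 at least 4-fold and 9 at least 8-fold higher. Among the lower genes it was -0.68, with 201, 34 and 9 genes past the same folds. With genes below detection in a group set to their bounds, the medians were 0.66 and -0.64, and 230 higher and 171 lower genes were at least 2-fold changed. The median over all genes tested was -0.01, with 5th and 95th percentiles of -0.765 and 0.832. At an unadjusted p under 0.001 with a fold of at least 2, as the study used for its heat map and shortlist, 218 genes were higher (2.3%) and 160 lower (1.69%). Probes not used for the gene value mostly moved the same way: 93.5% of 737 other probes of higher genes and 89.8% of 859 other probes of lower genes had the same sign. Of these other probes, 376 and 384 were called in the same direction, and 4 and 2 in the opposite one. Their median differences were 0.489 and -0.424, smaller than those of the chosen probes.

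The contrast does not by itself require a difference from both sites, so each was also tested. In the same fit 448 genes were above both T and L (4.72% of genes tested) and 417 were below both (4.4%), at an adjusted p of 0.05 in each of the 2 tests. Against T, 1033 genes were higher (10.9%) and 978 lower (10.3%), and against L, 558 were higher (5.88%) and 582 lower (6.14%). Of the 1149 higher genes a further 462 passed against T alone, 92 against L alone and 147 against neither by itself. Of the 1144 lower genes, 450 passed against T alone, 133 against L alone and 144 against neither. Every one of the called genes had the same sign against both sites, and the difference was larger against T for 794 of the higher and 753 of the lower genes. Both tests share the B arrays. Lung-derived and tumour-derived sublines gave no call in this fit by limma (lowest adjusted p = 0.147, with 860 genes at an unadjusted p under 0.05).

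**Figure D1:**
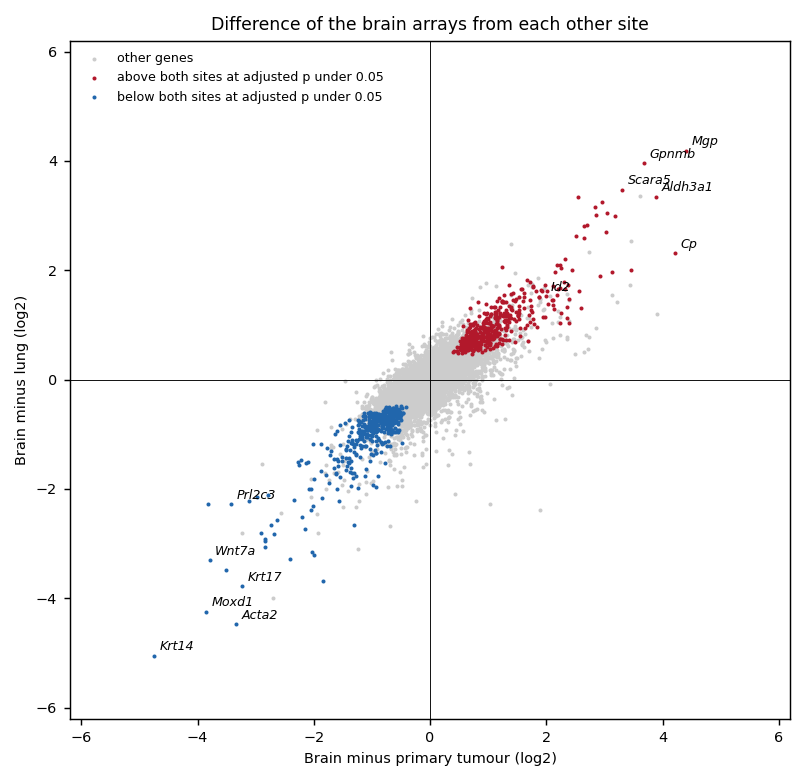
Difference of the brain-derived arrays from the primary tumour arrays (x axis, log2) and from the lung arrays (y axis, log2) for each of the 9486 genes tested (fitted values, also where a gene was below detection), with genes above both sites in red (448) and below both in blue (417). Krt14 lies at -4.75 and -5.05 and Mgp at 4.41 and 4.19, and the called genes lie in the corners where both differences have the same sign.

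All 4 B arrays lay above all 6 others for 775 genes (8.17%) and below them for 820 (8.64%). Of the genes called higher, 711 were separated in this way and in 438 the arrays overlapped, and of those called lower, 734 were separated. The B array closest to the other sites was B4 in 42% of the higher and 42.7% of the lower genes, and the farthest was B3 in 38.7% and 41.3%. B3 also had the lowest weight of all arrays (0.45) when limma weighted the arrays by how well they follow their group.

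The largest rise was that of Mgp, matrix Gla protein, a secreted inhibitor of calcification. It read 11.08, 11.20, 13.99 and 10.40 in B1 to B4, 6.23, 8.19 and 7.36 in T1 to T3, and 7.07, 6.68 and 8.68 in L1 to L3, a log2 difference of 4.30 ± 0.66 (SE; 19.7-fold, limma adjusted p = 0.00128). B3 was far above the other B arrays, and the lowest B array was still above the highest lung array. Gpnmb, a glycoprotein of lysosomes and melanosomes, read 10.73, 8.93, 9.61 and 10.33 in B, 5.43, 6.49 and 6.76 in T and 6.0, 5.64 and 6.17 in L (3.82 ± 0.34, 14.1-fold, adjusted p = 9.71e-05). Its groups were far apart, and its 3 other probes gave differences of 2.14 to 3.45. Aldh3a1, an aldehyde dehydrogenase that detoxifies products of lipid peroxidation, read 9.22, 10.05, 10.81 and 8.61 in B, 4.95, 6.15 and 6.26 in T and 6.14, 6.11 and 6.73 in L (3.61 ± 0.40, 12.2-fold, adjusted p = 0.000254). B3 was again the highest, and all 4 B arrays were well above the rest.

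Several of the strongest rises were of secreted proteins and metal handlers. Cp, which encodes the copper-carrying ferroxidase ceruloplasmin, read 10.76, 10.50, 11.37 and 10.32 in B, 5.14, 7.25 and 7.19 in T and 8.55, 8.26 and 8.47 in L (3.26 ± 0.37, 9.6-fold, adjusted p = 0.000288). The 3 groups did not overlap, with L between T and B. The 3 other probes of Cp gave smaller rises, of 1.35 to 2.02 (limma adjusted p = 0.0026 to 0.00691). Scara5, a scavenger receptor that takes up ferritin, read 8.57, 7.70, 9.84 and 5.82 in B and 4.46 to 4.84 elsewhere, where it was not detected, so the rise was at least 4.55-fold (fitted adjusted p = 0.00206). Here a lower bound is the mean of B over the detection floor of the other arrays. F13a1, the catalytic subunit of clotting factor XIII, split the B group: it read 6.2, 5.05, 10.99 and 10.46 in B1 to B4 and 4.46 to 4.95 elsewhere, detected on 3 of the 4 B arrays and at least 5.21-fold higher (adjusted p = 0.0245). That call rested on B3 and B4, and against L in the same fit F13a1 did not pass (limma adjusted p = 0.0818). In the brain contrast the adjusted p was 0.053 without B3, 0.0662 without B4 and 0.0546 on the values the authors had processed.

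Enzymes of glycan, hormone and amine metabolism followed. Hs3st1, a sulfotransferase of heparan sulfate, read 8.51, 10.26, 9.69 and 10.28 in B, 7.18, 6.31 and 6.70 in T and 6.50, 6.28 and 6.54 in L (3.10 ± 0.32, adjusted p = 0.000178). Cyp24a1, the enzyme that inactivates vitamin D, read 8.27, 9.93, 8.24 and 7.01 in B and 4.85 to 5.57 elsewhere, below detection, at least 5.92-fold (adjusted p = 0.0008). B4 was the lowest B array for both Cyp24a1 and Scara5, and for Scara5 (5.82) it lay at the edge of detection. Galnt15, of the family that starts mucin-type O-glycans, was at least 4.47-fold higher (7.96, 7.17, 9.30 and 7.39 in B, 4.66 to 5.18 elsewhere, adjusted p = 0.000261). Inmt, a methyltransferase of indolamines, was at least 3.35-fold higher (6.97, 8.12, 7.90 and 7.17 in B, 4.51 to 4.83 elsewhere, adjusted p = 2.66e-05). Neither was detected on any tumour or lung array. The other probe of Inmt gave a smaller rise of 0.84 (limma adjusted p = 0.0422), and that of Galnt15 gave 2.86. Nptx1, a neuronal pentraxin that clusters receptors at synapses, read 9.36, 10.19, 9.05 and 8.06 in B against 6.40, 6.93 and 6.53 in T and 5.70, 5.39 and 6.40 in L (2.94 ± 0.34, adjusted p = 0.000312). Irx3, a homeobox transcription factor, read 8.95, 9.5, 10.67 and 10.002 in B against 6.27, 7.02 and 6.98 in T and 6.94, 6.86 and 7.46 in L (2.86 ± 0.30, adjusted p = 0.000198). In both, the lowest B array exceeded the highest other array by more than 1 log2 unit.

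**Figure D2:**
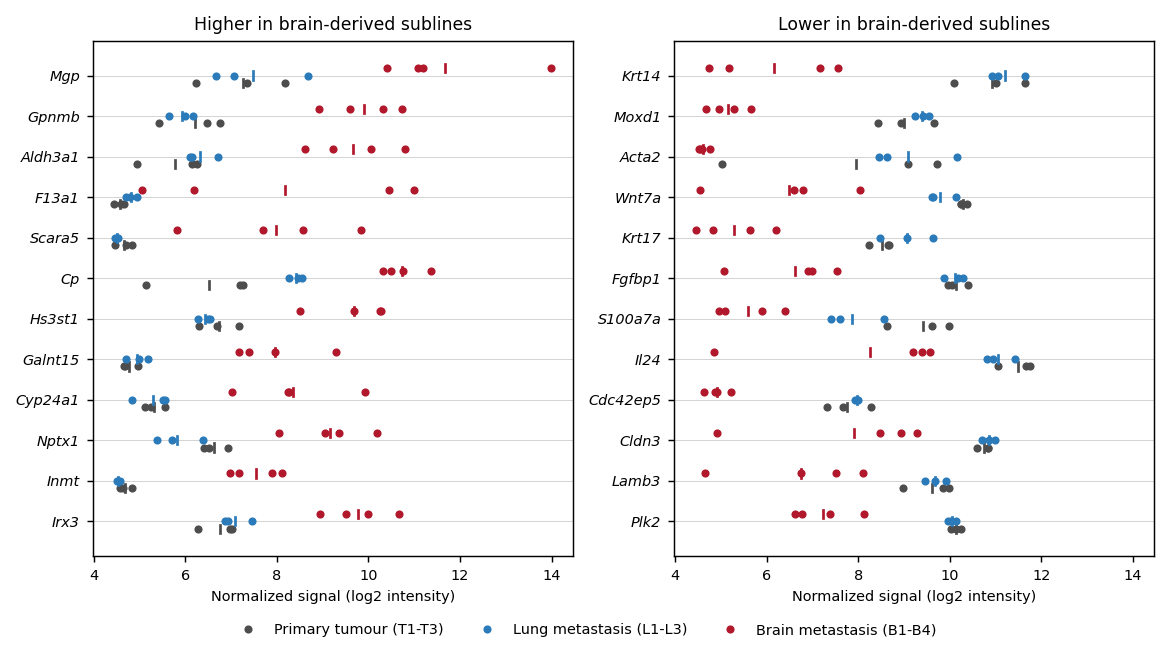
Normalized signal (log2 intensity, x axis) on each array for the 12 genes with the largest rise (left) and the 12 with the largest fall (right) in brain-derived sublines among genes whose brain arrays do not overlap the others. Dots are arrays and short bars are group means. The brain arrays spread widely for F13a1, Il24, Cldn3 and Scara5, and Acta2 was low on T1 as well (5.03).

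The largest fall was that of Krt14, the keratin of basal and myoepithelial cells. It read 7.55, 5.18, 4.75 and 7.16 in B1 to B4, 11.004, 11.63 and 10.10 in T and 10.93, 11.05 and 11.64 in L, a log2 difference of -4.90 ± 0.52 (29.9-fold lower, adjusted p = 0.000222). B2 and B3 were near background, while B1 and B4 kept a measurable level. Krt17, a second basal keratin, read 6.21, 4.83, 4.47 and 5.63 in B, 8.65, 8.67 and 8.23 in T and 9.63, 8.48 and 9.07 in L (-3.51 ± 0.32, adjusted p = 0.000103). Acta2, smooth muscle actin, was not detected on any B array (4.53 to 4.76) and read 5.03, 9.71 and 9.09 in T and 8.64, 10.15 and 8.45 in L, at least 7.07-fold lower (adjusted p = 0.00369). T1 was low as well, and only 5 of the 6 tumour and lung arrays had a clear signal. The 3 other probes of Acta2 gave smaller falls, of -1.66 to -1.16 (limma adjusted p = 0.0124 to 0.0383), so the bound holds for the chosen probe alone. Lamb3, a chain of the laminin that anchors epithelia, read 7.52, 6.75, 4.65 and 8.11 in B, 9.98, 9.86 and 8.98 in T and 9.91, 9.67 and 9.45 in L (-2.88 ± 0.53, adjusted p = 0.0034). Cldn3, a tight junction claudin, read 9.28, 8.93, 4.92 and 8.48 in B, 10.58, 10.84 and 10.82 in T and 10.996, 10.85 and 10.70 in L (-2.90 ± 0.67, adjusted p = 0.0102). For both genes B3 was at background, and the other 3 B arrays lay below the tumour and lung arrays by a smaller step.

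The other steep falls were of genes with varied roles. Moxd1, a copper monooxygenase related to the enzyme that makes noradrenaline, read 5.66, 4.97, 4.68 and 5.29 in B, 8.94, 9.65 and 8.44 in T and 9.53, 9.42 and 9.24 in L, at least 11.4-fold lower (adjusted p = 1.21e-05). Wnt7a, a Wnt ligand, read 6.60, 6.80, 4.55 and 8.03 in B, 10.24, 10.25 and 10.38 in T and 9.63, 10.14 and 9.62 in L (-3.55 ± 0.49, adjusted p = 0.000786). Fgfbp1, a carrier that frees fibroblast growth factors from the matrix, read 6.99, 5.07, 6.91 and 7.53 in B and 9.87 to 10.41 elsewhere (-3.50 ± 0.38, adjusted p = 0.000225). For Wnt7a and Fgfbp1 the B arrays spread more widely than the tumour and lung arrays together. Il24, a cytokine, read 9.18, 9.40, 4.84 and 9.58 in B and 10.80 to 11.75 elsewhere (-3.02 ± 0.76, adjusted p = 0.0151), with B3 far below the other B arrays. With no filter on dim probes its adjusted p was 0.055, and against L in the main fit it did not pass (limma adjusted p = 0.0648). S100a7a, a calcium-binding protein of stressed epithelia, read 5.08, 6.39, 4.96 and 5.91 in B, 9.99, 8.62 and 9.61 in T and 7.60, 8.56 and 7.40 in L (-3.05 ± 0.35, adjusted p = 0.000288). Cdc42ep5, an effector of the small GTPase Cdc42, was not detected on any B array (4.63 to 5.22) and read 7.32 to 8.27 elsewhere, at least 4.49-fold lower (adjusted p = 1.21e-05). Plk2, a polo-like kinase, read 7.38, 6.63, 6.76 and 8.13 in B and 9.96 to 10.24 elsewhere (-2.86 ± 0.25, adjusted p = 9.26e-05).

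The study took 5 genes further from a shortlist of genes higher in B on these arrays, picked by literature search and pathway analysis. Their values here are therefore not independent evidence of their direction. The paper also reported Id2 and Aldh3a1 as higher, by RT-qPCR and immunoblotting, in further brain-derived sublines isolated independently. Gpnmb and Aldh3a1 are given above. Bdh2, a cytosolic dehydrogenase of hydroxybutyrate, read 9.63, 10.13, 10.67 and 9.16 in B, 6.73, 7.56 and 6.66 in T and 8.14, 7.91 and 7.94 in L (2.41 ± 0.27, adjusted p = 0.000288). Lung-derived sublines stood between the other groups, without overlap. Id2, an inhibitor of basic helix-loop-helix transcription factors, read 9.90, 10.10, 10.06 and 9.29 in B, 8.13, 7.43 and 7.98 in T and 8.25, 8.35 and 8.34 in L (1.76 ± 0.19, 3.38-fold, adjusted p = 0.000225), and its 2 other probes gave 1.52 and 1.61. Uap1l1, related to an enzyme that makes a sugar nucleotide for glycosylation, read 12.42, 12.14, 12.35 and 12.40 in B and 10.46 to 11.21 elsewhere (1.36 ± 0.15, adjusted p = 0.000272). Its B arrays were the most alike of the 5 genes.

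Id2 was not alone among the Id proteins, which bind E proteins and keep them off DNA. Id4 read 7.12, 7.60, 4.93 and 6.05 in B and 4.48 to 4.78 elsewhere, at least 1.54-fold higher (adjusted p = 0.0108), with B3 at background. Its other probe gave 0.59 and did not pass (adjusted p = 0.113). Id1 (-0.14 ± 0.23, adjusted p = 0.707) and Id3 (0.09 ± 0.28, adjusted p = 0.847) did not pass on these arrays. By RT-qPCR, a different measure, the paper reported Id1, Id3 and Id4 as elevated in brain-derived sublines. Of 17 measured genes of Id proteins, E proteins and bone morphogenetic protein signalling, 4 were higher and 1 was lower, with a median of 0.16. The E proteins Tcf4 (1.07, adjusted p = 0.000215) and Tcf12 (at least 1.15-fold, adjusted p = 0.0166) were higher. Fst, which encodes the secreted activin antagonist follistatin, was called lower (adjusted p = 0.00221), but it was dim, not detected on any B array and detected on 3 of the other 6, and no fold could be bounded. Of 10 measured aldehyde dehydrogenases, 4 were higher and 1 was lower with a median of 0.04. Aldh3a2, which oxidises fatty aldehydes, read 11.01 to 11.45 in B and 9.18 to 10.11 elsewhere (1.5, adjusted p = 0.000152). Aldh6a1 of valine breakdown was higher too (1.44, adjusted p = 0.00441), and Aldh18a1 of proline synthesis was lower (-1.18, adjusted p = 0.00265).

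Lysosomal genes rose as a group. Of 49 measured, 25 were called higher and 0 lower, against 12.1% higher and 12.1% lower over all genes, and the median difference was 0.51, against -0.01. All 4 B arrays exceeded the other 6 in 20 of the 49, against 8.17% of all genes tested. The median deviation of the list from the mean of the T and L means was 0.538, 0.528, 0.447 and 0.559 in B1 to B4 and -0.191 to 0.127 on the other arrays, so no B subline stood apart. Against T, 27 members were higher (10.9% over all genes), and against L, 15 (5.88% over all genes). Tpcn1, a cation channel of endolysosomes, read 12.03, 11.96, 12.20 and 12.02 in B and 10.20 to 10.91 elsewhere (1.48 ± 0.17, adjusted p = 0.000288), while its 2 other probes gave 0.53 and 0.81, of which 1 did not pass (adjusted p = 0.0558). Grn, the precursor of progranulin and granulins, read 13.07, 12.90, 12.47 and 12.54 in B, 10.86, 11.43 and 11.34 in T and 11.67, 11.55 and 11.70 in L (1.32, adjusted p = 0.000411). The cathepsins, proteases of the lysosome, included Ctsh (11.72 to 12.12 in B and 10.32 to 11.09 elsewhere, 1.22, adjusted p = 0.000471). The other 24 members did not pass.

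The start regions of these genes were read for the letters CACGTG, the core of the motif bound by the lysosomal regulators of the TFEB family and by MYC, because the lysosome and ribosome lists moved in opposite directions. RefSeq windows of 250 bases before to 50 after the start of each gene (GRCm38.p6) matched 7753 of the 9486 genes tested. Stretches of 6 called lysosomal genes are shown, 5′ to 3′ on the strand of the gene, with the motif in capitals. They lie at chr13:64370731-64370770 (minus strand) for Ctsl, chr2:164833741-164833772 (plus) for Ctsa, chr7:142387900-142387945 (minus) for Ctsd, chr11:101070001-101070046 (plus) for Naglu, chr9:114401010-114401055 (plus) for Glb1 and chr11:119267803-119267848 (plus) for Gaa.
Ctsl: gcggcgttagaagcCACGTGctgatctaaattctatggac
Ctsa: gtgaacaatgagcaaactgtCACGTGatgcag
Ctsd: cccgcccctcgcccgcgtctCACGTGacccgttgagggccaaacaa
Naglu: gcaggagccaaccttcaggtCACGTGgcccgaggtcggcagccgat
Glb1: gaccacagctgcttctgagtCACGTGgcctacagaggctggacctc
Gaa: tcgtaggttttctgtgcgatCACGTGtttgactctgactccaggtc

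In these 6 genes, which were chosen after their values were seen, the log2 difference was 1.34 for Ctsl, 1.17 for Ctsa, 0.74 for Ctsd, 0.92 for Naglu, 0.65 for Glb1 and 0.60 for Gaa. Ctsl, Ctsa and Ctsd encode cathepsins, and the other 3 degrade glycans or glycogen. CACGTG, which reads the same on both strands, was in 14 of 41 lysosomal windows (34.1%), in 12.1% of the windows of all genes tested and in 8.09% of the 27025 genes of the table. Within the list it was in 8 of 22 called genes (36.4%) and 6 of 19 that were not called (31.6%). The longer TCACGTGA, which contains it, was in 6 of 41 lysosomal windows (14.6%), 2.4% of all tested and 1.12% of the table, and in 0 of 44 windows of ribosome biogenesis genes, of which 10 (22.7%) held CACGTG. Among all called genes CACGTG was in 13.7% of those higher and 13.6% of those lower, and TCACGTGA in 3.56% and 1.31%. A match is a run of letters and not a bound site.

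Ribosome biogenesis genes fell together. Of 49 measured, 37 were lower and 1, Tsr1 (adjusted p = 0.0337), was higher, with a median of -0.65. All 4 B arrays were below the other 6 in 25 of the 49, against 8.64% of all genes tested. The median deviation was -0.724, -0.458, -0.81 and -0.555 in B1 to B4 and -0.201 to 0.301 elsewhere, highest in T1. Against T, 34 members were lower (10.3% over all genes), and against L, 15 (6.14% over all genes). Rrp1b, a nucleolar protein of ribosomal RNA processing, read 8.24, 8.21, 7.86 and 8.24 in B and 9.47 to 9.74 elsewhere (-1.5, adjusted p = 9.26e-05). Heatr1, a factor of small subunit processing, read 7.60, 7.66, 7.52 and 8.02 in B and 8.42 to 9.27 elsewhere (-1.16, adjusted p = 0.000529). Mybbp1a (-1.0, adjusted p = 0.000372) and the nucleolar GTPase Gnl3 (-1.03, adjusted p = 0.000379) were lower as well. Myc, the transcription factor known to drive ribosome synthesis, read 7.14, 7.10, 6.72 and 7.08 in B and 7.68 to 7.94 elsewhere (-0.79, adjusted p = 0.00173).

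Genes of nucleotide and amino acid synthesis showed smaller shares of falls. Of 24 measured purine genes, 6 were lower and 3 higher. The synthesis enzymes Ppat (-0.95, adjusted p = 0.00116), Gart (-0.89, adjusted p = 0.00223) and Impdh1 (-0.87, adjusted p = 0.00128) fell, while Xdh, which degrades purines to urate, rose. Xdh read 9.35, 9.19, 9.52 and 8.77 in B, 4.78, 6.41 and 6.04 in T and 7.58, 6.95 and 7.07 in L (2.74, adjusted p = 0.000202), again with L in between. Of 37 measured genes that make amino acids or belong to the response to their shortage that runs through the transcription factor ATF4, 13 were lower and 1, Cebpb (adjusted p = 0.0466), was higher, with a median of -0.48. Asns, asparagine synthetase, read 8.10, 8.0, 7.74 and 8.32 in B and 8.96 to 10.01 elsewhere (-1.51, adjusted p = 0.000579). Mthfd2 of mitochondrial folate metabolism read 8.88, 7.81, 8.23 and 8.84 in B and 9.74 to 10.55 elsewhere (-1.67, adjusted p = 0.000869). Psat1 of serine synthesis (-1.06, adjusted p = 0.000832) fell, as did the glutamine transporter Slc1a5 (at least 1.59-fold lower, adjusted p = 0.00128). The median deviation of this list overlapped between groups, from -0.815 to -0.147 in B and down to -0.335 in T1.

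The response to amino acid shortage acts through composite elements that contain TGATGNAA. Stretches around it are shown for 3 called members, with the motif in capitals on whichever strand it was found, at chr6:7693210-7693252 (minus strand) for Asns, chr6:55037951-55037998 (plus) for Gars and chr8:111033710-111033757 (plus) for Aars.
Asns: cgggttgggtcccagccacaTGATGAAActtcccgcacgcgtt
Gars: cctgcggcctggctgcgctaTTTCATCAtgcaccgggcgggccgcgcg
Aars: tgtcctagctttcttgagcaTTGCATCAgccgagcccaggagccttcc

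Gars and Aars encode tRNA synthetases and, like the stretches, were chosen after their values were seen (-0.54 and -0.58). The motif, searched on both strands as TGATGNAA and TTNCATCA, was in 11 of 32 windows of the list (34.4%), 2.7% of all genes tested and 4.51% of the table. It was in 3 of 12 called members (25%) and 8 of 20 that were not called (40%).

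**Figure D3:**
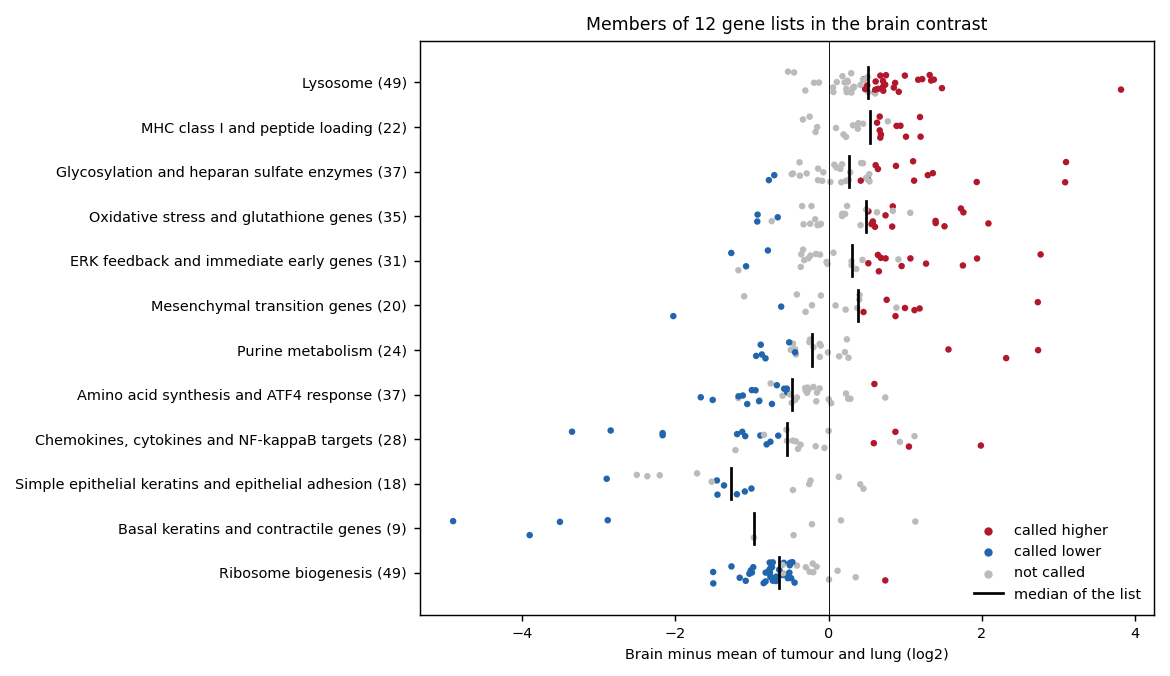
Log2 difference between brain-derived arrays and the mean of tumour and lung arrays (x axis, fitted values, also where a gene was below detection) for each measured member of 12 gene lists (rows, number of members in brackets). Dots are genes, red where called higher, blue where called lower and grey where not called, and the black bar is the median of the list. Lysosomal genes lie mostly right of 0 (median 0.51) and ribosome biogenesis genes mostly left (median -0.65).

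Epithelial and basal genes were lower where they passed the test. Of 18 measured genes of simple epithelia and of epithelial adhesion, 7 were lower and 0 higher, with a median of -1.28, and of 9 basal keratin and contractile genes, 4 were lower and 0 higher. Cdh1, E-cadherin, read 10.23, 9.66, 8.32 and 10.13 in B and 10.78 to 11.35 elsewhere (-1.46, adjusted p = 0.00744). Esrp2, an epithelial splicing regulator (-1.37, adjusted p = 0.00243), and the claudin Cldn7 (-1.01, adjusted p = 0.00473) fell. Ovol2, a repressor of mesenchymal transition, fell by its chosen probe (-1.20, adjusted p = 0.00406), but its brightest probe gave -0.24 (adjusted p = 0.339). Summed over the 8 detected epithelial markers, the level was 26276 to 36848 in B, 27303 to 33674 in T and 31774 to 38788 in L.

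B3 was lower in these genes than the other B sublines. The median of the epithelial list was -1.99 in B3 and -0.634 to -0.539 in B1, B2 and B4. Krt7, a simple epithelial keratin, read 12.32, 11.71, 5.37 and 12.96 in B1 to B4 and 12.42 to 13.17 elsewhere, and the splicing regulator Esrp1 read 11.08, 11.66, 4.69 and 8.37 with 10.99 to 11.78 elsewhere. Grhl2, an epithelial transcription factor, read 9.42, 9.10, 4.53 and 9.61, and the desmosomal cadherin Dsg2 read 9.10, 10.15, 4.96 and 9.09. These 4 genes were picked after their values were seen, and none was called in the contrast. Of the genes detected on the other 9 arrays, 119 were not detected on B3, 22 of them with a mean of at least 8 on those arrays, and the next highest number was 88 on T1. The keratin Krt8 stayed bright on B3 (14.51).

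Mesenchymal genes moved the other way in part. Of 20 measured, 7 were higher and 2 lower, with a median of 0.39, or 0.16 with genes below detection in a group at their bounds. Vim, vimentin, read 13.82, 13.58, 14.22 and 13.44 in B and 12.16 to 13.08 elsewhere (1.00, adjusted p = 0.00488). Foxq1, a forkhead factor of epithelial transition, read 8.49, 7.78, 6.64 and 9.0 in B and 4.48 to 5.78 elsewhere, at least 5.53-fold higher (adjusted p = 0.00116). Tgfbr1, a receptor of transforming growth factor beta, was higher (0.76, adjusted p = 0.00213), whereas the matricellular Ccn1 was lower (-2.03, adjusted p = 0.00208).

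Adhesion and matrix genes were called in both directions, beside 12.1% higher and 12.1% lower over all genes. Among 15 measured integrin subunits, 3 were higher and 2 lower. Itgb6, whose integrin activates transforming growth factor beta, was not detected in B (4.78 to 4.95) and read 6.2 to 8.32 elsewhere, at least 3.48-fold lower (adjusted p = 9.71e-05). Itga2 of the collagen receptor fell (-1.31, adjusted p = 0.00369), and Itga8 (at least 2.15-fold, adjusted p = 0.000479) and Itgb4 (1.21, adjusted p = 0.00222) rose. The other probes of Itga8 and Itgb4 gave smaller rises, of 0.78 and 0.74 (limma adjusted p = 0.00971 and 0.00931). Of 29 collagens, laminins and other matrix proteins, 9 were higher and 4 lower. Tnc, tenascin C, read 4.54 to 5.14 in B and 6.11 to 7.41 elsewhere, at least 1.94-fold lower (adjusted p = 0.000176), and Fbln2 was lower (-1.49, adjusted p = 0.00324). Col4a5, a basement membrane collagen, was at least 2.88-fold higher (adjusted p = 0.000411). Of 26 proteases and inhibitors, 3 were higher and 6 lower, and the higher count went to 1 without T1 or L2 and to 5 without B3 or T3. The metalloproteases Adam12 (at least 1.59-fold, adjusted p = 1.76e-05) and Adamts1 (at least 1.74-fold, adjusted p = 5.19e-05) fell, and Adamts9 was at least 1.63-fold higher (adjusted p = 0.00526), and by a second probe, at 0.60, it was not called (adjusted p = 0.082). The inhibitor Timp3 was called lower (adjusted p = 0.00617) by a probe detected on the lung arrays alone, with no fold that could be bounded, and its other probe gave 0.09 (adjusted p = 0.717).

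Inflammatory genes were lower more often than higher. Of 28 measured chemokines, cytokines and NF-kappaB targets, 11 were lower and 4 higher, with a median of -0.55 (-0.45 with bounds). Cxcl1, a chemokine for neutrophils, read 9.55, 11.04, 7.5 and 9.10 in B, 10.39, 12.30 and 12.42 in T and 12.69, 13.09 and 11.95 in L (-2.84, adjusted p = 0.00629). T1 was the lowest of the tumour arrays and below B2, so the groups overlapped. Ccl2, a chemokine for monocytes, was not detected in B (4.80 to 5.42) and read 4.56, 6.80 and 7.81 in T and 8.54, 8.35 and 7.86 in L, at least 3.09-fold lower (adjusted p = 0.00778), again with T1 low. Cxcl16 read 9.86, 9.18, 7.90 and 9.55 in B and 10.88 to 11.69 elsewhere (-2.17, adjusted p = 0.0015). The feedback inhibitor Tnfaip3 (-0.81, adjusted p = 0.00199) and Nfkb2 (-1.19, adjusted p = 0.00209) were lower too. Cx3cl1, a membrane-bound chemokine, went up: 9.63, 9.35, 10.47 and 9.20 in B, 7.23 to 8.40 elsewhere (1.99, adjusted p = 0.000319).

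Macrophage markers moved with these genes. Of 19 in the list, 4 were detected, and 3 of the 4 (P2ry12, Lyz1 and Lyz2) were called lower in B, where none of the 3 was detected. For P2ry12 no fold could be bounded. Against L all 3 passed in limma (adjusted p = 0.00421 to 0.00775). Against T only Lyz1 passed (0.0493), and P2ry12 (0.0602) and Lyz2 (0.0644) did not. The summed level of the 4 detected markers was 197 to 408 in B, 314 to 641 in T and 813 to 957 in L. Lyz1, a lysozyme of myeloid cells, read 4.57, 5.24, 4.56 and 4.45 in B, 4.60, 7.03 and 8.02 in T and 8.05, 8.23 and 8.91 in L, and Lyz2 followed it, with T1 at background in both. The other 14 markers with a probe, Adgre1, Csf1r and Ptprc among them, were not detected on any array. The part of these genes in the chemokine result was not tested, and fewer cells of a type and less RNA per cell cannot be told apart in such arrays.

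Antigen presentation genes were higher in B where they passed. Of 22 measured genes of MHC class I and its peptide loading, 10 were higher and 0 lower, with a median of 0.54 (0.42 with bounds). Against T, 11 were higher (10.9% over all genes), and against L, 1 (5.88% over all genes). Gene by gene, L against T gave no call in limma (lowest adjusted p = 0.147 over all genes tested). The list as a set was not tested between these sites. For the members named below, the fitted L value exceeded T by 0.97 (Tap2), 0.97 (H2-T23), 0.59 (H2-Q7) and 1.10 (Psmb9, not detected in T). The median deviation of the list was 0.498, 0.287, 0.878 and 0.318 in B1 to B4. It was -0.426, 0.0482 and -0.243 in T1 to T3 and 0.22, 0.0312 and 0.439 in L1 to L3. L3 thus lay above B2 and B4. The count of members higher in the brain contrast fell to 6 without T1 and to 5 without L2. Tap2, a subunit of the peptide transporter, read 9.80, 9.85, 9.79 and 9.61 in B, 7.69, 8.46 and 8.08 in T and 8.80, 9.09 and 9.26 in L (1.20, adjusted p = 0.000666). H2-T23 (1.19, adjusted p = 0.00158), H2-Q7 (1.01, adjusted p = 0.014) and the immunoproteasome subunit Psmb9 (at least 1.65-fold, adjusted p = 0.0155, or 0.0618 with tumour and lung as 1 group) were higher. H2 genes resemble each other closely, and a probe of one may read another. Of 23 interferon-stimulated genes, only Dhx58 was called (at least 1.21-fold higher, adjusted p = 0.0446), and it did not pass without B1, B3, B4, T1, T3, L2 or L3.

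Signalling genes with a feedback role rose more often than they fell. Of 31 measured genes of ERK feedback and immediate early response, 11 were higher and 3 lower, with a median of 0.30. Etv1, a transcription factor downstream of ERK, read 8.82, 8.88, 8.79 and 8.91 in B and 7.42 to 7.70 elsewhere (1.27, adjusted p = 9.26e-05). Egr3, an immediate early factor, was at least 4.46-fold higher (7.70, 8.71, 8.91 and 6.50 in B, 4.68 to 5.60 elsewhere, adjusted p = 0.000944). The ERK phosphatase Dusp6 rose (1.07, adjusted p = 0.00119), and Dusp5, a second one, fell (-1.27, adjusted p = 0.000919). Of 17 Wnt genes, 5 were higher and 2 lower, with a median of 0.38 (0.05 with bounds). The secreted Wnt inhibitors Notum (at least 2.27-fold, adjusted p = 0.00018) and Sfrp1 (1.45, adjusted p = 0.000451) and the membrane inhibitor Apcdd1 (1.65, adjusted p = 0.00169) rose. Of 31 growth factor genes, 7 were higher and 3 lower, with the receptors Fgfr2 (at least 1.09-fold, adjusted p = 0.00125), Mertk (at least 1.21-fold and detected on 2 B arrays, adjusted p = 0.00714) and Igf1r (0.70, adjusted p = 0.00431) higher. The 2 other probes of Igf1r gave 0.02 and 0.24 and did not pass (adjusted p = 0.935 and 0.282).

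Some luminal mammary regulators were among the higher genes, while other members of their list were lower. Of 14 measured mammary secretory and luminal genes, 5 were higher and 3 lower. Tfap2c, a transcription factor of luminal progenitors, read 8.46, 10.12, 7.10 and 8.49 in B and 5.60 to 6.23 elsewhere (2.57, adjusted p = 0.00206). Gata3, the luminal master regulator, read 10.99, 11.18, 11.50 and 10.93 in B and 10.15 to 10.54 elsewhere (0.80, adjusted p = 0.00317). Esr1, the estrogen receptor (0.72, adjusted p = 0.00286), and the milk fat protein Mfge8 (0.90, adjusted p = 0.00201) were also higher. Both measured proliferin genes, placental prolactin relatives, were lower: Prl2c3 (-2.85, adjusted p = 0.000289) and Prl2c2 (-2.56, adjusted p = 0.000485). Their sequences are nearly identical, so the probes may read the same transcripts.

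Oxidative stress and glutathione genes rose more often than they fell. Of 35 measured, 14 were higher and 3 lower (5 without B2), with a median of 0.49. Gsta4, a glutathione transferase for lipid aldehydes, read 8.31, 8.91, 8.46 and 7.31 in B and 6.50 to 6.93 elsewhere (1.51, adjusted p = 0.00215). The epoxide hydrolase Ephx1 (at least 1.78-fold, adjusted p = 0.00162) and Nfe2l2, which encodes the regulator NRF2 (0.83, adjusted p = 0.00242), were higher, and mitochondrial superoxide dismutase Sod2 was lower (-0.93, adjusted p = 0.000634). Of 17 genes of ketone bodies, fatty acid oxidation and creatine, 5 were higher and 0 lower, or 3 when B1, B3, T3, L2 or L3 was left out. Ckb, the brain-type creatine kinase, read 11.97, 11.36, 11.38 and 11.73 in B and 8.86 to 9.92 elsewhere (2.17, adjusted p = 0.000135), and Gamt of creatine synthesis was higher (1.27, adjusted p = 0.00275). Of 37 glycosylation enzymes, 12 were higher and 2 lower. Hs3st1 and Galnt15, given above, led them, and the fucosyltransferase Fut8 was higher (1.30, adjusted p = 0.000411).

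Genes named in other models of brain metastasis were called in both directions, beside 12.1% higher and 12.1% lower over all genes. Of 20 measured, 4 were higher, 4 were lower and 12 did not pass, with a median of -0.21, or -0.125 with bounds. Cxcr4, a chemokine receptor, read 6.31, 6.25, 5.79 and 5.80 in B and was not detected elsewhere, at least 1.18-fold higher (adjusted p = 0.000272). Itgb4 of the laminin receptor, Ltbp1, which holds latent transforming growth factor beta (0.73, adjusted p = 0.00526), and the histone demethylase Kdm6a (0.55, adjusted p = 0.0151) were higher. The other probe of Ltbp1 (0.04, adjusted p = 0.894) and that of Kdm6a (0.31, adjusted p = 0.0816) did not pass. Serpind1, a serpin that inhibits thrombin (at least 1.44-fold, adjusted p = 0.00224), Ccl2, Angptl4, an inhibitor of lipoprotein lipase (-1.73, adjusted p = 0.0151, or 0.0514 with no filter on dim probes), and Ptgs2 (-0.94, adjusted p = 0.0414) were lower. Ptgs2, the inducible prostaglandin synthase, did not pass without B2 or without any single tumour or lung array (-1.0 to -0.92). Lcn2 (-0.25, adjusted p = 0.892), Vegfa (0.23, adjusted p = 0.331) and Foxc1 (0.59, adjusted p = 0.0975) were among those that did not pass, along with Hbegf, Gja1, Itgav, Sparc, Csf2, Plekha5, Fscn1, Erbb2 and Egfr. Of 23 neural and synaptic genes, 5 were higher and 1 lower, among them the synaptic adhesion protein Nlgn2 (0.85), the semaphorin receptor Plxnd1 (1.19) and the neurotrophin Bdnf (at least 1.81-fold).

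**Figure D4:**
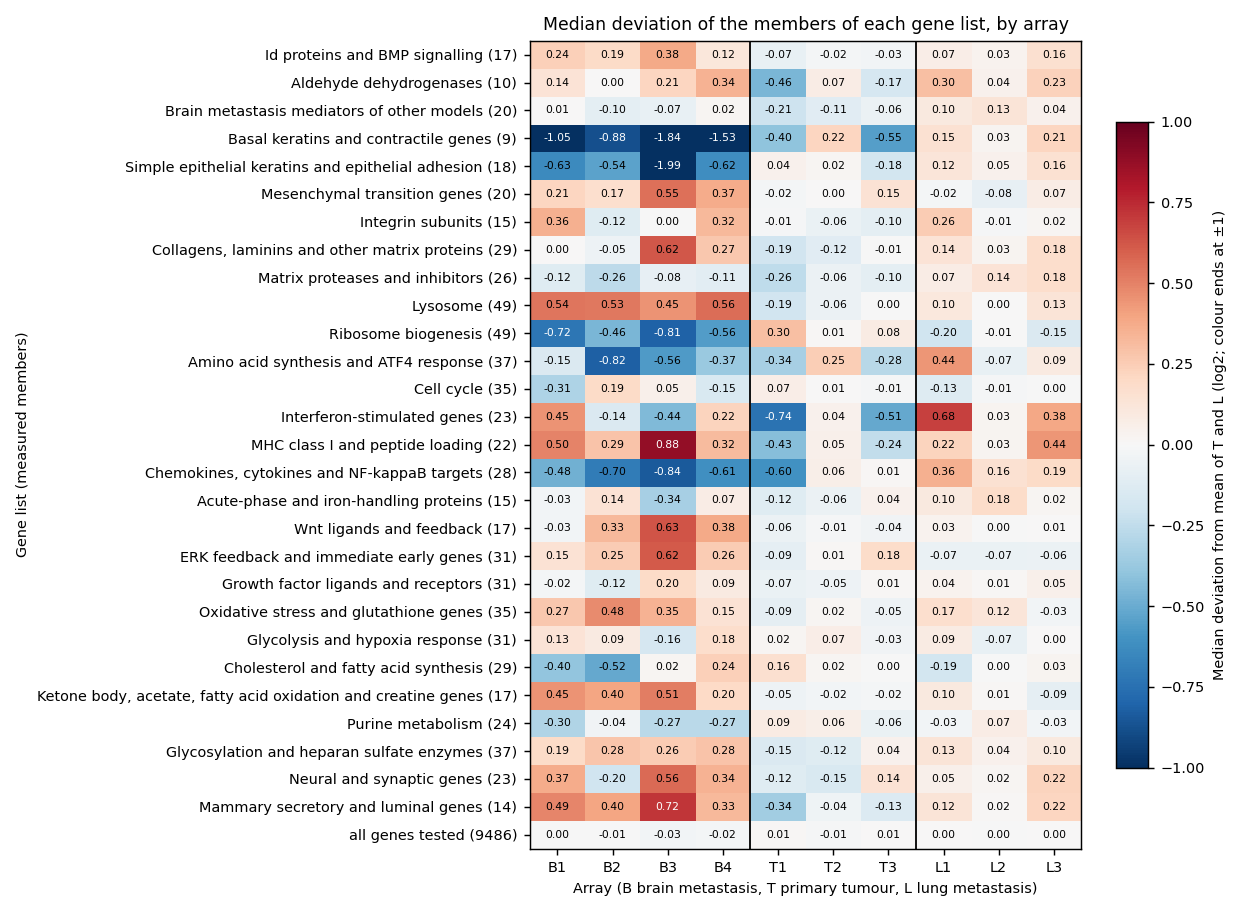
Median log2 deviation of the measured members of each gene list (rows, number of members in brackets) from the mean of the tumour and lung group means, on each array (columns). The 4 brain arrays are alike for the lysosome (0.447 to 0.559) and ribosome biogenesis rows, while B3 alone is far down for epithelial adhesion (-1.99) and T1 is low for chemokines.

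Genes of chromosome 19 were lower in B more often than others. Of 349 tested there, 93 were lower (26.6%) and 13 higher (3.72%), with a median of -0.28, and the chromosome held 8.14% of all lower genes, 1.13% of the higher genes and 3.69% of those tested. The median over its 251 genes detected on all arrays was -0.405, -0.24, -0.517 and -0.0377 in B1 to B4 and -0.149 to 0.0823 on the other arrays. B1, B2 and B3 were thus below every other array, and B4 lay within their range. The share of these genes below 0 was 79.7% in B1, 72.9% in B2, 82.5% in B3 and 53.8% in B4. With the chromosome divided into 4 blocks of equal numbers of genes, the median was negative in every block for B1 (-0.492 to -0.245), B2 (-0.309 to -0.203) and B3 (-0.566 to -0.431). The share called lower was 17.5% without B1 and 34.7% without B4. Acta2 lies on this chromosome, as do 4 each of the ribosome biogenesis and amino acid genes. DNA copy number was not measured.

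Other chromosomes stood apart in fewer B sublines or by smaller steps. Chromosome 15 had a median of -0.42 in B2, chromosome 5 had -0.351 and chromosome 18 had -0.364 in B3, and chromosome 13 had 0.283 in B4. Over all 20 chromosomes the medians on the 6 tumour and lung arrays spanned -0.149 to 0.0823, and part of that narrowness is built in, since those arrays form the reference. Below that span were 1 chromosome in B1, 6 in B2, 4 in B3 and 2 in B4, and above it were 4, 9, 4 and 2. Chromosome 3 was above it in B1 (0.0886), B2 (0.298) and B3 (0.101), chromosomes 1 and 2 in B2 and B3, and chromosomes 9, 10 and 17 in B1 and B2.

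**Figure D5:**
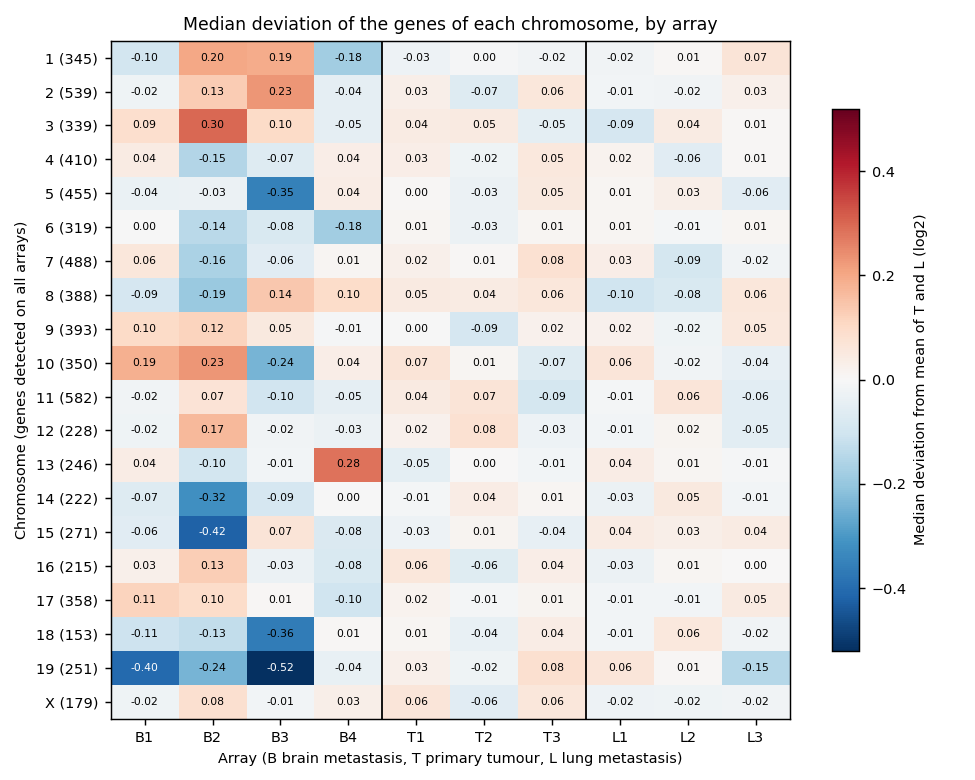
Median log2 deviation of the genes of each chromosome (rows, number of genes detected on all arrays in brackets) from the mean of the tumour and lung group means, on each array (columns). Chromosome 19 is down in B1 (-0.405), B2 (-0.24) and B3 (-0.517) and not in B4 (-0.0377), and the other marked rows differ between B sublines.

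Neighbouring genes were called together at 9 places with 4 or more adjacent tested genes called the same way. How many such places arise with 12.1% of genes called in each direction was not tested. Runs called higher lay on chromosomes 2, 4, 10 and 13, and runs called lower on chromosomes 5, 11, 18 and 19. The chemokine cluster on chromosome 5 (Ppbp, Pf4, Cxcl1 and Cxcl2) was called lower with a median of -1.27, or -0.189 with the 3 genes below detection in B at their bounds, and Ccl2 and Ccl7 with 3 neighbours on chromosome 11 were called lower with a median of -0.79, or -0.56 with bounds. Pf4 did not pass without B1, B2, B4, T2, L1 or L3, and Lig3 did not pass without B2, B3 or L2 (-0.50 to -0.43). Gpam, Acsl5, Zdhhc6 and Vti1a on chromosome 19 were called lower with a median of -0.63, or -0.61 with bounds. Without B1, Gpam (adjusted p = 0.0518) and Zdhhc6 (adjusted p = 0.0508) did not pass.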

How the data were processed

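RNA of 4 brain-derived, 3 primary tumour-derived and 3 lung-derived 4T1 sublines was hybridised to Illumina mouse whole-genome bead arrays, 1 for each subline. The authors extracted probe intensity values with GenomeStudio, and the deposited table of these, not normalized and with background, was used here with the deposited detection p-value of each probe. For their processed table the authors filtered probes by detection p and applied variance stabilization and robust spline normalization with lumi (version not given in the sources used here), and deposited values close to the log2 scale, used as an alternative. The slide of each array is not given in the sources used here.

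Intensities were background-corrected and quantile-normalized with neqc of limma 3.58.1 in R 4.3.3 (offset 16). Of 17550 probes detected (p of 0.01 or less) on at least 1 array, the probe with the largest interquartile range was kept for each of 9486 genes, as in the methods of the study. One linear model of the 3 groups was fitted with limma, and the contrast was B minus the mean of T and L. Adjusted p-values are Benjamini-Hochberg over all genes, called under 0.05. The study itself used 2-sample tests with a random variance model. A gene not detected on any array of a group has a lower bound, taken with its value there set to at least that of the dimmest probe detected on the array. Tested on simulated data for this contrast over 9486 genes, the fit recovered 80% of 100 genes changed by 1 and 100% of 100 changed by 2 on the log2 scale, with 11 unchanged genes called. The number of arrays limits the precision.

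Named genes are the 12 largest called differences in each direction without overlap, the 5 genes the study took further, Id1 to Id4, the mediators of other models, up to 4 members of each list with the smallest adjusted p, and runs of 4 or more neighbours. Genes outside this rule are named as chosen after their values were seen. The members and lists were chosen with earlier results of these data known. Alternatives were other background, scaling, filter, probe and weight settings, other fits, and each array left out. Tables and figures were made with Python 3.11.15, pandas 2.3.3, numpy 2.4.6 and matplotlib 3.10.9.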

Additional observations from a re-analysis of the deposited data

Results flagged for a closer look

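In 8 of the 178 named genes 1 brain-derived array lay apart from the other 3 by more than Dixon's critical value for 4 samples, and chance alone gives this in about 1 of 20 groups. B3 was the low array in 4 of them, with a normalized log2 signal of 4.845 for Il24, 7.862 for Rrp1b, 5.194 for Slc1a5, which was not detected on any B array, and 6.72 for Myc. B3 was also the array apart for Kdm6a (9.672). B4 was apart for Fut8 (10.1) and Atf2 (10.72), and B1 for Mob3a (8.779). Atf2 and Mob3a lie in runs of neighbouring called genes on chromosomes 2 and 10, and neither passed in most fits that left out 1 array.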

How the results depend on the processing

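Of the genes called, 70.9% or more were called again in the same direction under each alternative other than fitting the pairs of groups alone, which kept 24.5% of the higher and 22.1% of the lower genes. With array weights 1084 genes were higher and 1073 lower, with no filter on dim probes 1008 and 1068, with an offset of 50 1212 and 1228, with the probe of highest mean 1134 and 1077, with median scaling 1209 and 1074, and on the processed values of the authors 1178 and 1226. Leaving out 1 array gave 850 to 1167 higher and 839 to 1168 lower genes, both lowest without lung replicate 2. Fitting each pair of groups alone and asking for both lowered the counts to 282 and 253. For genes with an unadjusted p below 0.001 that were also 2-fold changed, the counts were 141 higher and 90 lower without background correction, 104 lower with an offset of 50, 74 and 47 on the processed values of the authors, and 102 and 86 with each pair fitted alone. With 1 array left out they ran from 173 to 259 higher and from 138 to 196 lower. The cause was not tested.

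Groups share replicate numbers. Deviations of same-numbered B and L arrays correlated at 0.141 to 0.215, over 0.1 in 3 of 3 pairs, against -0.114 to 0.0568 for different numbers. Same-numbered B and T arrays (-0.113 to 0.0724) and T and L arrays (-0.112 to 0.0912) were over 0.1 in 0 of 3 pairs each, while 2 of 9 differently numbered B and T pairs were (up to 0.169), so the numbers were not taken as pairs over the 3 groups. No source says whether B and L arrays of 1 number share a mouse. A replicate block, which leaves B4 out of the contrast as the sole array with its number, gave 1109 higher and 1085 lower genes. Among the genes named in the report, F13a1 (limma adjusted p = 0.0577), Bdnf (0.0503), Dhx58 (0.0945) and Mob3a (0.111) did not pass in it.

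Of the named genes, 50 of 89 higher and 46 of 72 lower kept their call and sign under all 21 alternatives. The sign reversed for 1 called gene, Rffl, with the probe of highest mean (0.12). Among genes that were not called it reversed for Gja1 under median scaling (-0.023), for Plekha5 with the probe of highest mean (0.24), for Id3 with the replicate block (-0.236) and, when arrays were left out in turn, for Id1 (-0.344 to 0.0949), Id3 (-0.236 to 0.287) and Lcn2 (-1.33 to 0.387). The cause was not tested. Signal over background limits genes not detected in a group, near a log2 value of 5.6 to 5.9, for which single genes are given by bounds.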

Other observations

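Cell division and energy genes changed little as groups, beside 12.1% called higher and 12.1% lower over all genes. Of 35 measured cell cycle genes, 4 were higher and 4 lower with a median of -0.08, among them the cyclin Ccnd1 (0.67, adjusted p = 0.0081 in limma, with other probes at 0.38 and 0.45) and the mitotic factor Foxm1 (-0.63, adjusted p = 0.0191). The higher count fell to 1 without B2, B3, T1, T2, L2 or L3. Of 31 genes of glycolysis and the hypoxia response, 5 were higher (3 without B1) and 4 lower with a median of 0.05. Aldoc (1.04) and Eno2 (1.24), isoforms of glycolytic enzymes typical of the nervous system, were higher, and the carbonic anhydrase Car12 was lower (-1.55). The other probe of Aldoc did not pass (0.46, adjusted p = 0.119), and against L its chosen probe did not pass either (limma adjusted p = 0.0574). Of 29 genes of cholesterol and fatty acid synthesis, 2 were higher and 2 lower with a median of -0.19, and Mvk of the mevalonate pathway was lower (-1.45). The median deviation of this list was -0.397 and -0.515 in B1 and B2 and 0.0171 and 0.239 in B3 and B4.

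Acute-phase and iron-handling genes were mixed. Of 15 measured, 4 were higher and 3 lower, or 1 lower without B1, T3 or L2. Slpi, a secreted protease inhibitor, read 13.98, 13.09, 14.35 and 13.98 in B, 7.90, 10.50 and 11.44 in T and 12.89, 12.86 and 12.22 in L (2.55, adjusted p = 0.00658), so that L lay just below B. Against L it did not pass (1.20, limma adjusted p = 0.243). Slc11a2, the iron importer, was lower (-1.55, adjusted p = 0.000288).

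Some markers of other cell lists were bright. Gja1 (13.15 to 13.45) and Sox9 (11.57 to 13.02) of the astrocyte list and Flt1 (8.77 to 10.44) of the endothelial list were detected on all arrays. Flt1 was called higher in B (0.88, limma adjusted p = 0.00507), with all B arrays above the others. Of the fibroblast and pericyte list, 4 of 11 were detected, with Pdgfra higher (1.74) and a summed level of 722 to 2934 in B, 193 to 317 in T and 417 to 659 in L. Pdgfra read 9.347, 9.433, 11.451 and 9.181 in B1 to B4 and 9.183 in L3, so the groups overlapped. Against L it did not pass (1.08, limma adjusted p = 0.16). Of the astrocyte list, 3 of 12 were detected, with Sox9 (0.65) and Aldoc higher and a summed level of 16164 to 19510 in B, 14190 to 15121 in T and 13593 to 15190 in L. Gja1 did not pass. No lymphocyte or erythroid marker with a probe was detected on any array.

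The number of genes detected on a single array was 60, 99, 127 and 141 in B1 to B4 and 25 to 65 on the tumour and lung arrays.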
